A study of Mus musculus with 6 samples.

Results

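The stretch described here was 10 Mb of mouse chromosome 6 around Actg2, the gene of enteric smooth muscle gamma-actin. It held every region of the deposited table on chromosome 6 whose centre lay between 78.5 and 88.5 Mb of genome build mm10, which gave 334 of 63430 regions. Within these bounds, position alone decided which regions were members. Actg2 itself spanned 83.513 to 83.536 Mb, near the middle of the stretch.

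Open chromatin was mapped by ATAC-seq (the transposase Tn5 inserts sequencing adapters where DNA is accessible) in NIH/3T3 cells, a fibroblast line derived from mouse embryos. All cells carried a knock-in of CRISPR-Cas13d, an enzyme that cuts RNA at sites matched by a guide RNA. In 3 libraries the cells had been transfected with a guide specific for Actg1, the gene of cytoplasmic gamma-actin, and in the 3 control libraries with a guide specific for GFP. The labels name biological replicates but not separate cultures, nor whether the knock-in line was a single clone, so the spread that p-values rest on may be technical.

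The stated aim was to learn how decay of an mRNA bears on transcriptional adaptation, a response in which loss of a targeted or mutant transcript is accompanied by raised transcription of genes related to it in sequence. Actg2 is a paralogue of Actg1 and is often used as a readout of that response. Open regions at transcription start sites (TSSs) mark promoters that are bound by the transcription machinery, while open regions far from a TSS often mark enhancers, so a 10 Mb profile sets the neighbourhood of such a gene beside the genes and regulatory DNA on either side of it.

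The promoters of 6 genes of the stretch are shown by sequence because the results on protein-coding promoters rest on them. They are the 3 with the largest rises among called promoters that had a sequence entry (Aak1, C87436 and Tia1), the called promoter with the highest signal (Pcbp1), the single coding promoter that fell (Aplf), and the promoter nearest to Actg2 (Dguok). Each run is the 250 bases before the gene's start from RefSeq (GRCm38.p6, the mm10 assembly), read on the gene's strand, with capitals marking matches to the motifs named after them.
Aak1 (chr6:86849034-86849283, plus strand): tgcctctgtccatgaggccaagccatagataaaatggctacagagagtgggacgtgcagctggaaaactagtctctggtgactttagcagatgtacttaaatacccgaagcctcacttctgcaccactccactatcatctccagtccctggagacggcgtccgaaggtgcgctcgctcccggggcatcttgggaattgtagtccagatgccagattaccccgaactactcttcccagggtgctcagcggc
C87436 (chr6:86438148-86438397, plus strand): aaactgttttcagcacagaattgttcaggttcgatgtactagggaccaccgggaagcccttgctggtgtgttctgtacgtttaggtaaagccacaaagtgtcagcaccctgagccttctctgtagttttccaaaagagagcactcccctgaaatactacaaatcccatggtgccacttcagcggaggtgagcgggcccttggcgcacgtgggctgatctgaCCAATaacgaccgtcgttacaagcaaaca
Tia1 (chr6:86403969-86404218, plus strand): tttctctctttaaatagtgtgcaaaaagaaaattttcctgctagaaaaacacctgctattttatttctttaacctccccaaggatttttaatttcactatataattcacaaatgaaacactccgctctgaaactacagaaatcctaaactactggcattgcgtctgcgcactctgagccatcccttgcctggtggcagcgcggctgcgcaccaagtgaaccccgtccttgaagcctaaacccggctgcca
Pcbp1 (chr6:86526190-86526439, minus strand): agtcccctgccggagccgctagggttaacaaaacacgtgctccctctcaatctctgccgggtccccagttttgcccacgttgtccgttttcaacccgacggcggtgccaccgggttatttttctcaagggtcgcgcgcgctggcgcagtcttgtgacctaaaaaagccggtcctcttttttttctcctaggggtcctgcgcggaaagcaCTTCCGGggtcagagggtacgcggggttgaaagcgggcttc
Aplf (chr6:87672162-87672411, minus strand): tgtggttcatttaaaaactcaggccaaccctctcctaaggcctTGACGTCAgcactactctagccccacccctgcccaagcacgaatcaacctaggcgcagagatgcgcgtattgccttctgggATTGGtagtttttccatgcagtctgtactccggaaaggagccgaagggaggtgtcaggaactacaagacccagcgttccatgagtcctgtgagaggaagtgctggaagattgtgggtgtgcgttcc
Dguok (chr6:83506970-83507219, minus strand): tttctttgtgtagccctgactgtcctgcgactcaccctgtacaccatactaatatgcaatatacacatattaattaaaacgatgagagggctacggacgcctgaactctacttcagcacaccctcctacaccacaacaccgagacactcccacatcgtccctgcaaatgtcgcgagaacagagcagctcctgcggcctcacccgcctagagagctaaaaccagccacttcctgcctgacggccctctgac

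The motifs searched, on both strands, were AP-1 (TGANTCA), TEAD (GGAATG), SP/KLF (GGGCGG), ETS (CCGGAAG), CREB (TGACGTCA), NFY (CCAAT) and NRF1, and the letters of none of them contain those of another. Of the 59 regions at promoters of coding genes, 45 had a RefSeq entry. SP/KLF letters stood in 26 of these 45 promoters (57.8%), against 32.7% of all 32851 promoters in the table, which also include promoters with no open region. ETS letters stood in 22.2% of the 45, against 6.91% of all, and NFY letters in 44.4%, against 33.8%. AP-1 letters were in 1 of 45 (2.22%), against 6.75% of all, and TEAD letters in 6.67%, against 12.6%. CREB letters stood in 4.44%, against 1.55%, and NRF1 letters also in 4.44%, against 0.782%. Among the 8 promoters that were called higher and had an entry, 2 held SP/KLF, 3 ETS and 4 NFY letters, while among the 36 not called these counts were 24, 7 and 15. Of the printed promoters, C87436 held 1 NFY match, Pcbp1 1 ETS match and Aplf 1 CREB and 1 NFY match, and Aak1, Tia1 and Dguok held no match in this window.

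Signal here means a read count per region that the authors had normalized and rounded, and its total was 7673745 to 7831438 in the 6 libraries. Estimated reads in regions ranged from 5675571 to 9525330 per library. GFP guide replicates 1 and 2 could not be told apart from sampling noise, which alone gives a chi-square per region of 1 (here 1.01 over 57988 regions, p = 0.155), while the other pairs of libraries within a group had 1.03 to 1.13. The pair was counted as 1 sample, so n = 3 for the Actg1 guide and n = 2 for the GFP guide, and the GFP guide SD leaves out the spread within the pair. A fit without GFP guide replicate 3 therefore had 1 GFP guide sample, and calls lost in it cannot be traced to that library alone. The fibroblast label was read from promoters: 6 of 8 fibroblast markers had an open promoter region, with a signal of 28.2 to 937.5, Pdgfra and Thy1 had none, and 0 of 8 markers of other cell types had one. Loss of the targeted mRNA could not be checked, since ATAC-seq does not measure RNA. Accessibility at the targeted gene could not be read either. Actg1 (chromosome 11, 120345687 to 120348495) had 0 regions inside it and 0 in the 10 kb on either side.

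The question nearest to the study's aim is what happened around Actg2. Its gene body held no region. The nearest one, and the single one within 10 kb, was at the start of Dguok, the gene of the deoxyguanosine kinase of mitochondria. The 12 regions within 100 kb held 1 steep rise, 1 smaller rise and 2 falls, among 8 regions that were not called. A region was called when its limma adjusted p, over all 61327 regions tested, was under 0.05. Over all tested regions 41.3% were called, so 4 of 12 is no excess over that share.

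The steep rise lay at 83478743 to 83479077, 34.0 kb on the lower-coordinate side of Actg2 and 1.30 kb outside Dguok, the coding gene nearest to it. Its signal was 97, 100 and 108 with the Actg1 guide, against 23, 25 and 29 with the GFP guide. All 3 Actg1 guide libraries stood far above the 3 GFP guide libraries, with no overlap. Its log2 fold change was 1.91 (SE 0.165, limma adjusted p = 2.16e-12), which is 3.75-fold, the second largest rise by fold change among the called regions of the stretch.

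The Dguok promoter, 6.05 kb from Actg2, had a signal of 605, 553 and 583 with the Actg1 guide, against 552, 612 and 553 with the GFP guide. These values interleaved, and the log2 fold change of 0.03 (SE 0.0593) was not called (limma adjusted p = 0.704). On the other side of Actg2, the promoter of Stambp, which encodes an endosomal deubiquitinase, had 182, 158 and 180 with the Actg1 guide, against 192, 222 and 184 with the GFP guide. The 3 Actg1 guide libraries lay below the 3 GFP guide libraries by a narrow margin, and the log2 fold change of -0.17 (SE 0.1) was not called (limma adjusted p = 0.168).

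The remaining 9 regions within 100 kb were a weak one at 83583003 to 83583158, with a log2 fold change of -0.24, and 8 regions inside Tet3, which encodes an enzyme that oxidises 5-methylcytosine. In Tet3 the region at 83416484 to 83416774 fell to 20, 18 and 26 with the Actg1 guide, against 50, 49 and 35 with the GFP guide (log2 fold change -0.95, limma adjusted p = 0.00176). A second, at 83443512 to 83443789, fell by less, with 125, 127 and 116 with the Actg1 guide, against 146, 176 and 158 with the GFP guide (log2 fold change -0.38, limma adjusted p = 0.0055), and this call was lost without GFP guide replicate 3 (limma adjusted p = 0.069). In both falls, the Actg1 guide libraries all lay below the GFP guide libraries. The region at 83440515 to 83440681 had 63, 77 and 68 with the Actg1 guide, against 40, 38 and 63 with the GFP guide, so that the groups met at 63. Its rise of 0.47 on the log2 scale (limma adjusted p = 0.0291) was no longer called without any one of the 3 Actg1 guide libraries (limma adjusted p from 0.0673 to 0.161). The region nearest to the Tet3 start listed in the table, 2655 bp away, had 212, 199 and 250 with the Actg1 guide, against 243, 230 and 239 with the GFP guide, and its log2 fold change of -0.12 was not called (limma adjusted p = 0.336).

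**Figure D1:**
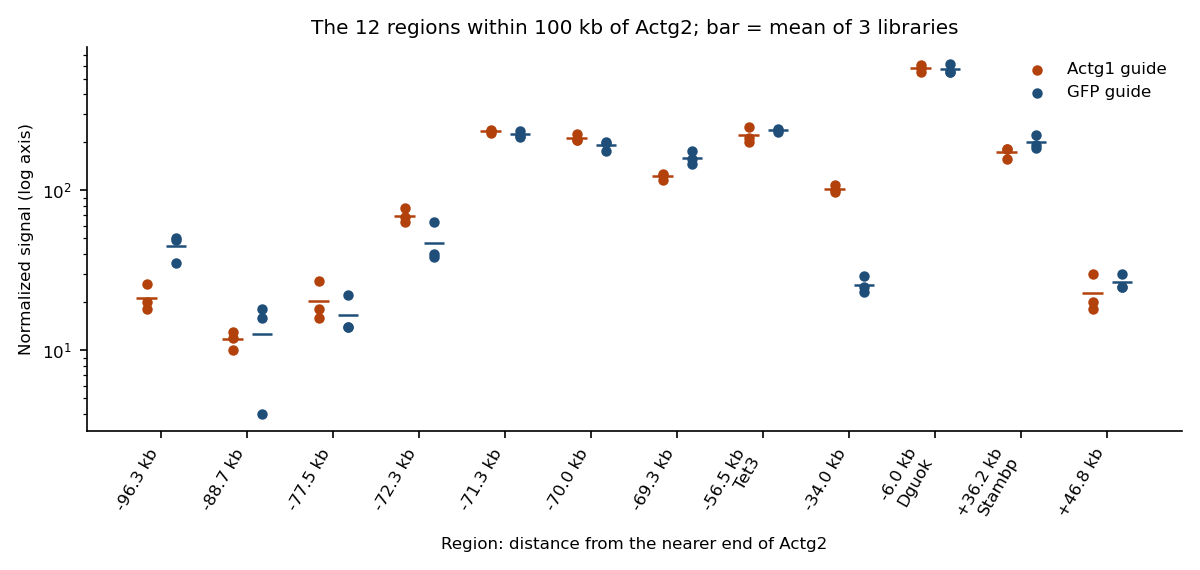
Normalized signal (log axis) of the 12 regions within 100 kb of Actg2 in the Actg1 guide libraries (left of each pair) and the GFP guide libraries (right), ordered by distance from the nearer end of the gene, with a bar at the mean of the 3 libraries. The region 34.0 kb on the lower-coordinate side sits at 97 to 108 with the Actg1 guide and at 23 to 29 with the GFP guide, and the Dguok promoter overlaps between the groups.

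Summed over these neighbourhoods, the signal hardly differed. Within 50 kb, 4 regions summed to 902, 831 and 901 with the Actg1 guide, against 792, 889 and 791 with the GFP guide, a log2 ratio of 0.11 (exact two-sided permutation p = 0.3, where 0.1 is the smallest this design allows). GFP guide replicate 2 lay within the range of the Actg1 guide libraries. Within 100 kb the sums were 1787, 1732 and 1851 with the Actg1 guide, against 1696, 1839 and 1737 with the GFP guide (log2 ratio 0.03, exact permutation p = 0.5). Within 500 kb, 62 regions summed to 10373, 10334 and 10269 with the Actg1 guide, against 9996, 10212 and 9866 with the GFP guide, so that the groups no longer overlapped, at a log2 ratio of 0.05 (exact permutation p = 0.1). Within 1 Mb, 146 regions gave a mean sum of 17206 ± 131 (SD, n = 3) with the Actg1 guide and 17219.5 ± 81.3 (SD, n = 2) with the GFP guide, a log2 ratio of -0.0011 (exact permutation p = 1.0).

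The share of regions called was not highest next to Actg2. Of the tested regions under 50 kb from the gene, 1 of 4 was called, higher; from 50 to 100 kb, 1 of 8 was higher and 2 lower; and from 100 to 250 kb, 2 of 13 were higher and 2 lower. From 250 to 500 kb, 8 of 35 were higher and 5 lower, and from 500 kb to 1 Mb, 15 of 81 were higher and 19 lower. From 1 to 2 Mb, 9 of 55 were higher and 8 lower, and at 2 Mb or more, 36 of 131 were higher and 25 lower, the highest share called of these bands at 46.6%. The nearest bands hold few regions, and these shares were not tested against each other.

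Across the whole stretch, 327 regions reached a signal of 10 in 3 or more of the 6 libraries and were tested, and 7 were left out as too weak. With the Actg1 guide 72 of the 327 were higher and 61 lower, 40.7% in all, against 41.3% of all tested regions and 43.6% of those on the rest of chromosome 6. At 2-fold or more, 24 were higher and 30 lower, 16.5% in all, against 12.2% over the whole table (6.13% higher and 6.03% lower). The 3 libraries of one group lay all above or all below those of the other in 158 of 327 regions (48.3%), against 50.8% of all. The median log2 fold change was 0.05 in the stretch and -0.01 over all tested regions, and the median absolute change was 0.30 and 0.31. How much of the count rested on GFP guide replicate 3 cannot be read from the fit without it. The other pair of GFP guide libraries was averaged, which leaves that fit no spread between GFP guide samples. Calls lost in it therefore cannot be traced to that library alone.

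The stretch took 0.51%, 0.519% and 0.516% of all signal in the 3 Actg1 guide libraries, against 0.499%, 0.504% and 0.492% in the 3 GFP guide libraries. By this share, every Actg1 guide library lay above every GFP guide library. The means were 0.515% ± 0.00453 (SD, n = 3) with the Actg1 guide and 0.497% ± 0.00627 (SD, n = 2) with the GFP guide, a difference of 0.0182 percentage points (exact permutation p = 0.1, the smallest possible). The totals used as divisor also differed, at 7673745 to 7689108 with the Actg1 guide, against 7732413 to 7831438 with the GFP guide. A lower total by itself raises the share. Shares of other stretches were not computed.

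**Figure D2:**
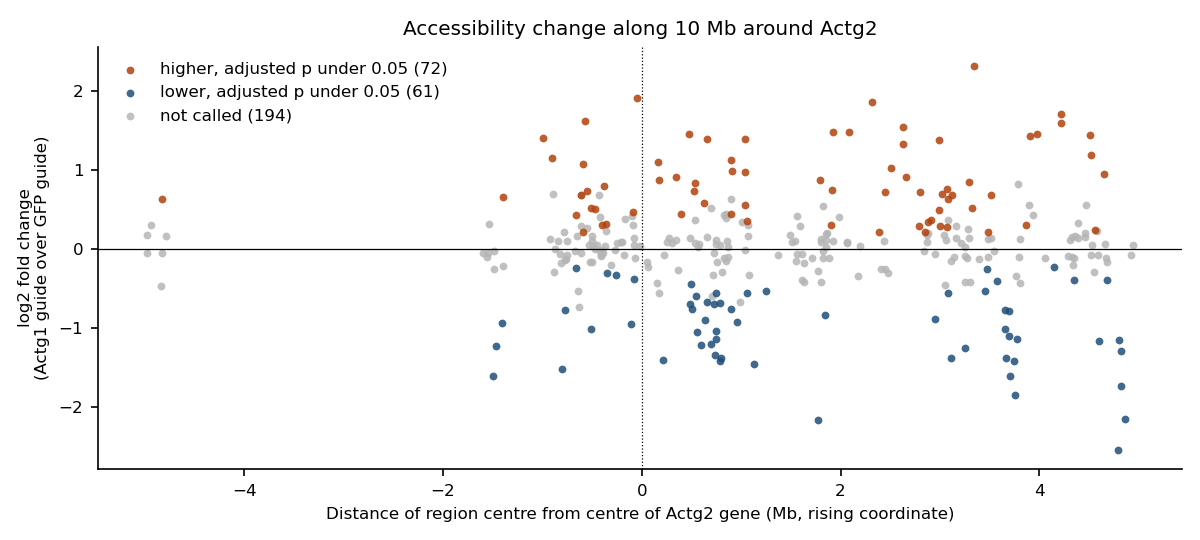
Log2 fold change (Actg1 guide over GFP guide) of the 327 tested regions against the distance of each region's centre from the centre of Actg2 in Mb, with 72 regions called higher, 61 called lower and 194 not called. Called regions of both signs lie on both sides of the gene, runs of one sign are visible between 0.5 and 5 Mb, and no point falls between the regions near -4.8 Mb and those near -1.6 Mb.

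The regions were spread unevenly. Between 78738584 and 81923379 lay 3.18 Mb with no region, a gap that holds Lrrtm4, a gene of a synaptic adhesion protein, and Gm20594 whole. Only 7 regions lay on its far side, and 1 of them was called, higher. The next 2 gaps were 0.4 and 0.138 Mb long, and the second of them holds the whole of Tgfa, the gene of transforming growth factor alpha. At the lower end the first member, at 78546606 to 78546844, had 27, 30 and 26 with the Actg1 guide, against 33, 14 and 25 with the GFP guide. The nearest region outside lay 5131.86 kb beyond that edge, with 304, 283 and 286 with the Actg1 guide, against 167, 176 and 221 with the GFP guide. At the upper end the last member, the promoter of Ruvbl1, had 212, 208 and 188 with the Actg1 guide, against 177, 193 and 207 with the GFP guide, and the promoter of Sec61a1 just outside had 349, 372 and 355 with the Actg1 guide, against 347, 369 and 323 with the GFP guide.

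Along the stretch, called regions were grouped into runs, that is, rows of called regions with none of the other sign between them. By this definition every called region belongs to a run, and many runs held only 1. The longest held 16 higher regions from 85431774 to 86439167, 1007.39 kb with 30 tested regions, 14 of them not called. The next held 10 lower regions from 87101342 to 87302283 and 9 lower regions from 84225644 to 84319019. Between neighbouring tested regions the log2 fold changes correlated at Pearson r = 0.27 (326 pairs), and at 0.36 for the 160 pairs under 10 kb apart, against 0.19 and 0.25 over the whole table. All pairs come from the same libraries and share a region with the next pair. Where both neighbours were called, 46 of 63 pairs had the same sign (73.0%), against 66.9% in the whole table.

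Counts of called regions in the bins and gene bodies below are read against 20.6% higher and 20.7% lower of all tested regions. Of the 15 bins of 500 kb with tested regions, the summed signal of the groups did not overlap in 11, lower with the Actg1 guide in 4 and higher in 7. Bins elsewhere in the genome were not computed, and 50.8% of all single tested regions did not overlap, so 11 of 15 is not shown to be particular to this stretch. The 4 lower bins were those of Dysf, Antxr1 and Eefsec and the bin from 82.0 to 82.5 Mb, which holds Eva1a. From 84.0 to 84.5 Mb, the bin of Dysf, 8 of 51 tested regions were higher and 19 lower, and the sums were 2813, 3013 and 3026 with the Actg1 guide, against 3176, 3453 and 3280 with the GFP guide. From 87.0 to 87.5 Mb, the bin of Antxr1, 4 of 26 were higher and 11 lower, with 2253, 2239 and 2338 with the Actg1 guide, against 2607, 2714 and 2643 with the GFP guide. From 88.0 to 88.5 Mb, the bin of Eefsec, 4 of 21 were higher and 7 lower, with 1854, 1871 and 1856 with the Actg1 guide, against 2019, 2017 and 2021 with the GFP guide. The log2 ratios of the means in these 3 bins were -0.16, -0.22 and -0.12. From 82.0 to 82.5 Mb, 1 of 7 was higher and 3 lower, with 546, 531 and 553 with the Actg1 guide, against 610, 587 and 611 with the GFP guide (log2 ratio -0.15).

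The 3 bins of highest ratio among the 7 lay side by side from 85.5 to 87.0 Mb. They held 4, 9 and 11 regions called higher, against 0, 1 and 4 called lower, and log2 ratios of the summed signal of 0.23, 0.18 and 0.20. In the bin of 1 Mb from 85.5 to 86.5 Mb, 13 of 28 tested regions were higher and 1 was lower. Its sums were 4596, 4671 and 4545 with the Actg1 guide, against 4018, 4167 and 3965 with the GFP guide, with no overlap (log2 ratio 0.19, exact permutation p = 0.1, the smallest possible). Without GFP guide replicate 3, 9 regions of the bin were called higher. Of the other 4 higher bins, the one from 83.5 to 84.0 Mb, which holds Actg2, had 3045, 2984 and 2993 with the Actg1 guide, against 2830, 2923 and 2705 with the GFP guide. Its log2 ratio was 0.11, or 0.06 without GFP guide replicate 3, and the remaining 3 had ratios of 0.02 to 0.05.

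**Figure D3:**
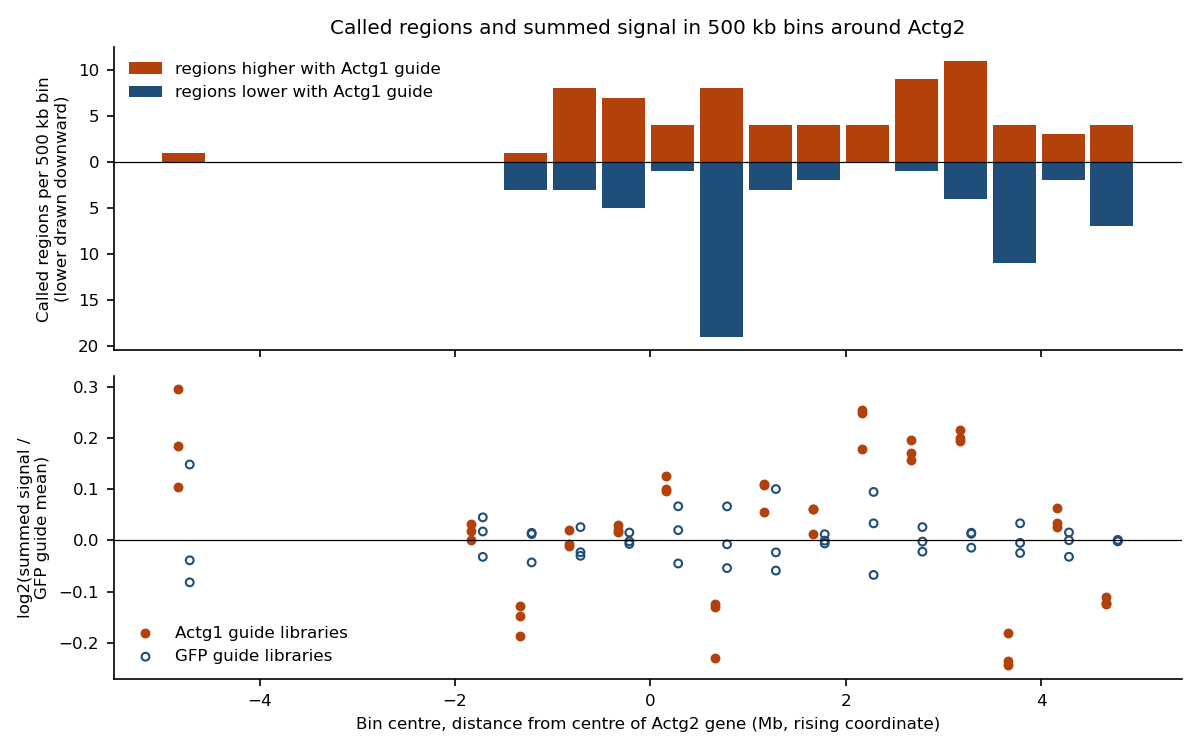
Upper panel: called regions per 500 kb bin, higher drawn upward and lower downward, against the distance of the bin centre from the centre of Actg2 in Mb. Lower panel: log2 of each library's summed signal in the bin over the GFP guide mean, for the Actg1 guide libraries (filled) and the GFP guide libraries (open), where the bins at 82.0 to 82.5, 84.0 to 84.5, 87.0 to 87.5 and 88.0 to 88.5 Mb lie below 0 with the Actg1 guide and the 3 bins from 85.5 to 87.0 Mb lie above it.

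Antxr1, which encodes a cell-surface receptor that binds collagen and anthrax toxin, lost accessibility along its gene body. Of its 14 tested regions 9 were lower, 7 of them at 2-fold or more, and 0 were higher, and the summed signal was 649, 640 and 696 with the Actg1 guide, against 1071, 1171 and 1154 with the GFP guide. Every Actg1 guide library lay far below every GFP guide library, at a log2 ratio of -0.78 (exact permutation p = 0.1, the smallest possible). The strongest of these regions, at 87219125 to 87219998, had 223, 220 and 267 with the Actg1 guide, against 490, 530 and 502 with the GFP guide (log2 fold change -1.10, SE 0.0806, limma adjusted p = 2.25e-14). The steepest fall, at 87277602 to 87277793 by the start of an antisense transcript, had 4, 4 and 4 with the Actg1 guide, against 22, 10 and 18 with the GFP guide (log2 fold change -1.85, limma adjusted p = 0.00141). It lay below the filter of 10 in every Actg1 guide library, and its call was lost without GFP guide replicate 3 (limma adjusted p = 0.0714). The promoter of Antxr1 itself, at 138 ± 3.79 (SD, n = 3) with the Actg1 guide and 126 ± 7.42 (SD, n = 2) with the GFP guide, was not called (log2 fold change 0.13, limma adjusted p = 0.373). Without GFP guide replicate 3, 4 of the 14 regions were called lower, and with a filter at a signal of 20, 5 of 9.

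Eefsec, the gene of the elongation factor that brings selenocysteine to the ribosome, had the steepest fall in summed signal among the 21 genes with at least 3 tested regions. Of its 6 regions 5 were lower, all at 2-fold or more. The sums were 290, 266 and 269 with the Actg1 guide, against 510, 515 and 497 with the GFP guide, with a wide gap between the groups (log2 ratio -0.88, exact permutation p = 0.1, the smallest possible). The region at 88389012 to 88389420 had 16, 23 and 12 with the Actg1 guide, against 79, 84 and 72 with the GFP guide (log2 fold change -2.15, SE 0.241, limma adjusted p = 1.38e-09). At 88322018 to 88322202, the largest fall of the stretch by fold change, the signal was 6, 1 and 1 with the Actg1 guide, against 20, 20 and 14 with the GFP guide (log2 fold change -2.55, SE 0.597, limma adjusted p = 0.000591), a low signal, below the filter of 10 in every Actg1 guide library, whose call was lost without GFP guide replicate 3 (limma adjusted p = 0.0596). The sixth region was the promoter of Eefsec, at 162 ± 6.24 (SD, n = 3) with the Actg1 guide and 171 ± 12.7 (SD, n = 2) with the GFP guide, which was not called (log2 fold change -0.08, limma adjusted p = 0.584).

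Dysf, which encodes dysferlin, a membrane repair protein of muscle, was mixed. Of its 18 regions 8 were lower and 4 higher, and the sums of 906, 932 and 864 with the Actg1 guide all lay below the 1091, 1205 and 1102 with the GFP guide (log2 ratio -0.32, exact permutation p = 0.1, the smallest possible). The region at 84084658 to 84085492 had 86, 120 and 92 with the Actg1 guide, against 187, 222 and 207 with the GFP guide (log2 fold change -1.06, limma adjusted p = 2.7e-09). Further along the gene, at 84185885 to 84186051, the signal was 38, 46 and 37 with the Actg1 guide, against 11, 13 and 18 with the GFP guide (log2 fold change 1.39, limma adjusted p = 1.45e-05). Just before the gene, at 84002620 to 84003109, it was 131, 149 and 149 with the Actg1 guide, against 44, 51 and 56 with the GFP guide, a rise of 1.45 on the log2 scale (SE 0.134, limma adjusted p = 1.06e-11). The groups were apart in all 3 of these regions. The Dysf promoter, 267 bp from its TSS, was not called (log2 fold change 0.14, limma adjusted p = 0.349), and without GFP guide replicate 3 the body held 4 lower and 1 higher calls.

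Smyd5, which encodes a SET-domain protein, opened at all 3 of its regions. The sums were 311, 317 and 299 with the Actg1 guide, against 192, 203 and 191 with the GFP guide, with no overlap (log2 ratio 0.67, exact permutation p = 0.1, the smallest possible). The steepest was the region at 85443861 to 85444460, with 98, 101 and 94 with the Actg1 guide, against 34, 32 and 36 with the GFP guide (log2 fold change 1.48, SE 0.157, limma adjusted p = 4.05e-10). The promoter, with 161, 155 and 155 with the Actg1 guide, against 125, 138 and 124 with the GFP guide, rose by less (log2 fold change 0.30, limma adjusted p = 0.0245) and, of the 3 calls, 1 was left without GFP guide replicate 3.

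Zfp638, the gene of a nucleic acid-binding zinc finger protein, had sums of 571, 619 and 583 with the Actg1 guide, against 458, 461 and 457 with the GFP guide. Sema4f, the gene of a semaphorin, a membrane-bound guidance cue, had 399, 380 and 348 with the Actg1 guide, against 275, 273 and 301 with the GFP guide. Both genes stood higher in every Actg1 guide library, at log2 ratios of 0.37 and 0.39 (exact permutation p = 0.1 each, the smallest possible). Zfp638 had 2 of 4 tested regions called higher and Sema4f 3 of 4, and 1 to 2 and 1 to 3 were called when each library was left out in turn. Rab7, which encodes a small GTPase of late endosomes, had 375, 391 and 368 with the Actg1 guide, against 309, 309 and 301 with the GFP guide (log2 ratio 0.31), and 2 of its 3 regions were higher at 2-fold or more.

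Outside these genes, the most significant change of the stretch was at 86513297 to 86514092, which the table assigned to a long intergenic noncoding RNA 2578 bp away. Its signal was 379, 361 and 388 with the Actg1 guide, against 140, 156 and 140 with the GFP guide. The groups were far apart, and the log2 fold change was 1.38 (SE 0.0836, limma adjusted p = 8.06e-17). It lay near Pcbp1, the gene of a poly(C)-binding protein, and began a run of 7 higher regions from 86513297 to 86605929.

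The 10 largest rises by fold change lay between 1.45 and 2.31 on the log2 scale. The largest, at 86869668 to 86869897 inside Aak1, had 21, 28 and 26 with the Actg1 guide, against 5, 2 and 5 with the GFP guide (limma adjusted p = 1.38e-06). The third, after the region 34.0 kb from Actg2, lay at 85844235 to 85844429 by the start of a processed pseudogene, and had 36, 42 and 38 with the Actg1 guide, against 8, 14 and 9 with the GFP guide (log2 fold change 1.85, limma adjusted p = 2.63e-07). In the largest, all 3 GFP guide values lay below the filter at a signal of 10, so the region was tested through its Actg1 guide libraries alone, which limits what its rank and p can show. In the region at 85844235 to 85844429, 2 of the 3 GFP guide values lay below the filter. Of the 10 largest rises 3 were tested through the Actg1 guide libraries alone, and of the 10 largest falls 3 through the GFP guide libraries alone. Over the stretch 10 of 327 tested regions had 1 group wholly below the filter, among them 4 called higher and 4 called lower. Of the called regions with neither group wholly below it, the region 34.0 kb from Actg2 had the largest rise. A pair of neighbours inside Efcc1, at 87743369 to 87743537 and at 87745269 to 87745663, rose by 1.71 and 1.60 on the log2 scale, to means of 34.3 ± 3.51 and 131 ± 20.6 (SD, n = 3) with the Actg1 guide, against 9.75 ± 0.354 and 42.8 ± 7.42 (SD, n = 2) with the GFP guide.

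The 10 largest falls lay between -1.42 and -2.55. In addition to those in Antxr1 and Eefsec, the region at 85302387 to 85302826 inside Sfxn5, the gene of a mitochondrial sideroflexin, had 5, 5 and 16 with the Actg1 guide, against 40, 31 and 39 with the GFP guide (log2 fold change -2.17, limma adjusted p = 7.32e-06). The third Actg1 guide library stood above the other pair and still below every GFP guide library. The region at 82029850 to 82030304, near Eva1a, fell to 19.7 ± 6.66 (SD, n = 3) with the Actg1 guide, against 59.5 ± 0.707 (SD, n = 2) with the GFP guide (log2 fold change -1.61, limma adjusted p = 1.34e-06). A further region, at 82723449 to 82723708, 1.45 kb from Hk2, fell by 1.52 on the log2 scale (limma adjusted p = 2.61e-05).

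A promoter was a region whose centre lay 1 kb or less from the TSS of the gene assigned to it. Of 75 such regions 12 were higher and 5 lower (22.7%), against 32.7% of the 11650 promoters of the whole table, while of the 252 other regions 60 were higher and 56 lower (46.0%), against 43.3%. The median absolute log2 change was 0.11 at promoters of the stretch and 0.41 at its other regions, a difference that was not tested. At the 59 promoters of coding genes 10 were higher and 1 lower (18.6%), against 31.2% of coding promoters in all, of which 12.9% were higher and 18.3% lower, and 0 of the 59 changed by 2-fold or more. The count moved with the settings: without GFP guide replicate 3 it was 3 higher and 0 lower, and it was 5 higher without GFP guide replicate 1, 6 higher without Actg1 guide replicate 1, and 15 higher with cyclic loess or quantile scaling. The strongest regions of the stretch were mostly of this class. They were the promoters of Cct7, Mxd1, Paip2b and Dguok, and the region at 82652471 to 82653244. The last had no assigned gene and lay in Pole4 by its RefSeq bounds. All of them had mean signals of at least 567.5 in both groups and were not called.

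The largest promoter rise among coding genes was that of Aak1, a kinase of clathrin-coated pits, whose sequence is printed above. Its signal was 336, 322 and 325 with the Actg1 guide, against 247, 252 and 211 with the GFP guide. The groups were apart, and the log2 fold change was 0.51 (SE 0.0824, limma adjusted p = 2.61e-06). At the C87436 promoter the signal was 492, 488 and 511 with the Actg1 guide, against 405, 397 and 371 with the GFP guide (log2 fold change 0.36, limma adjusted p = 1.59e-05). Tia1, the gene of a stress-granule RNA-binding protein, had 368, 327 and 320 with the Actg1 guide, against 243, 276 and 274 with the GFP guide (log2 fold change 0.34, limma adjusted p = 0.000567). Both promoters had groups that did not overlap, and they closed the run of 16 higher regions.

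The promoter of Pcbp1 had 590, 646 and 576 with the Actg1 guide, against 500, 513 and 485 with the GFP guide, with no overlap (log2 fold change 0.28, SE 0.061, limma adjusted p = 0.000215). It was the strongest of the called coding promoters, and its adjusted p was 0.0509 without GFP guide replicate 3. The promoters of Dctn1, Ino80b, Smyd5, Rpn1, Cml1 and Snrpg rose by 0.21 to 0.32 on the log2 scale, with limma adjusted p from 0.0245 to 0.0471. Dctn1 encodes a dynactin subunit, Ino80b a subunit of a chromatin remodeller, Rpn1 a subunit of the oligosaccharyltransferase and Snrpg a core protein of spliceosomal particles. At the Dctn1 promoter the groups overlapped, with 154, 185 and 134 with the Actg1 guide, against 116, 139 and 123 with the GFP guide. The calls of Dctn1, Smyd5, Snrpg and Rpn1 were lost when Actg1 guide replicate 1 was left out, and likewise for GFP guide replicate 1 or 3. Without Actg1 guide replicate 2 the calls of Dctn1, Snrpg and Rpn1 were lost as well (limma adjusted p = 0.198, 0.0894 and 0.0637). That of Rpn1 was also lost without Actg1 guide replicate 3 (limma adjusted p = 0.0639). Ino80b and Cml1 were not followed singly through these fits.

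The coding promoter that fell was that of Aplf, the gene of a histone chaperone that acts in the joining of broken DNA ends. Its signal was 435, 434 and 415 with the Actg1 guide, against 486, 507 and 506 with the GFP guide. The groups were apart by a clear margin, although the fall was small (log2 fold change -0.23, SE 0.0642, limma adjusted p = 0.00378). The other 4 promoters that fell belonged to noncoding genes: 3 antisense transcripts and 1 long intergenic noncoding RNA. The antisense start at 82052612 to 82053146, near Eva1a, had 26, 34 and 32 with the Actg1 guide, against 82, 71 and 70 with the GFP guide (log2 fold change -1.24, limma adjusted p = 1.58e-06), and that at 86480035 to 86480720, beyond C87436, had 56, 69 and 63 with the Actg1 guide, against 118, 124 and 113 with the GFP guide (log2 fold change -0.89, limma adjusted p = 2.68e-06). Of all 6 regions assigned to antisense transcripts, 4 were lower and 0 higher, and of 14 assigned to long intergenic noncoding RNAs, 4 were higher and 2 lower (42.9% called), against 20.6% higher and 20.7% lower of all tested regions.

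**Figure D4:**
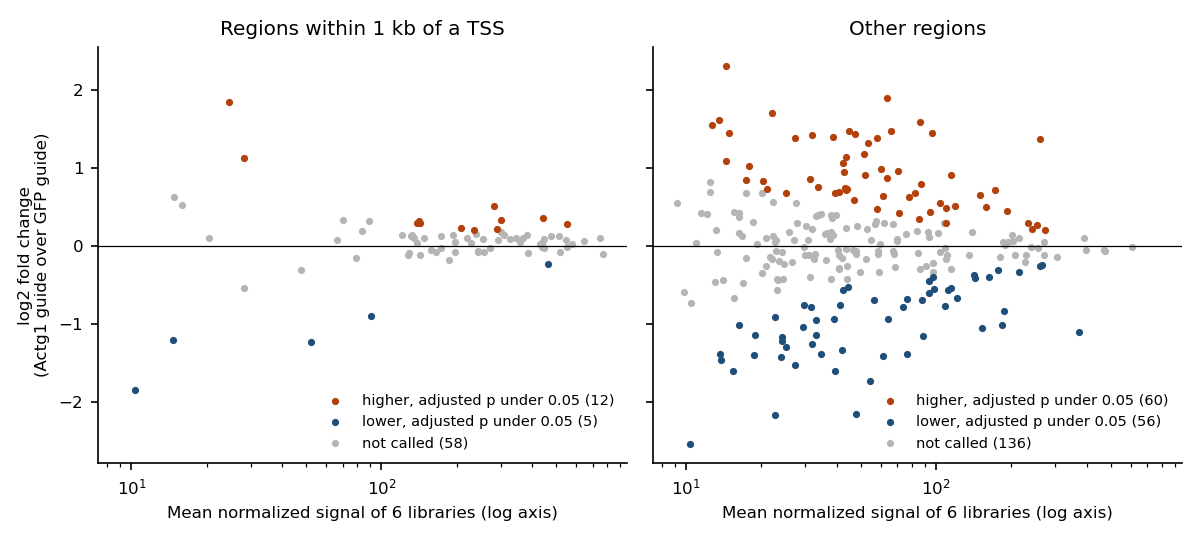
Log2 fold change (Actg1 guide over GFP guide) against mean normalized signal of the 6 libraries (log axis) for the 75 regions within 1 kb of a TSS (left) and the 252 other tested regions (right). Promoters hold 12 higher and 5 lower calls, those of large change being weak, while other regions hold 60 higher and 56 lower calls.

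The genes were also grouped into lists by role, and each list's share of called regions is read against the 41.3% of all tested regions (20.6% higher and 20.7% lower). Coding promoters, which make up much of these lists, were called less often (31.2% over the whole table). A list counts only regions that carry the symbol of one of its genes, which lie near a TSS. Most regions inside Antxr1, Dysf and Eefsec described above are therefore left out. The list of RNA binding and processing had 17 tested regions at 12 genes, of which 6 were higher and 0 lower. Its share called, 35.3%, lay below that of all regions but above the 31.2% of coding promoters. The median log2 fold change of its regions was 0.20, against -0.01 for all. Promoters made up 12 of the 17, with 4 higher and 0 lower, against 12.9% higher and 18.3% lower of all coding promoters. The list also holds Smyd5, which encodes a SET-domain protein, Ruvbl1, an ATPase of chromatin remodellers, and Hmces. These genes have roles outside RNA, and their place in this list was not checked. Regions of Smyd5 are among the 6 that were higher, so the 6 cannot be read as a count at RNA genes alone. The 6 were the promoters of Pcbp1, Tia1, Smyd5 and Snrpg, the second region of Smyd5, and a region 1164 bp from the start of Zfp638, at 149 ± 3.61 (SD, n = 3) with the Actg1 guide and 78.8 ± 3.89 (SD, n = 2) with the GFP guide, which differ by 0.91 on the log2 scale (limma adjusted p = 4.75e-08). The promoters of Paip2b, Cnbp, Isy1, Dusp11, Snrnp27 and Ruvbl1 had log2 fold changes of 0.05 to 0.15 and were not called. Without GFP guide replicate 3, 2 of the 17 regions were higher, and 4 without Actg1 guide replicate 1 or GFP guide replicate 1.

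Among genes of the actin cytoskeleton, adhesion and motility, 8 of 11 had an assigned region, and 2 of 12 such regions were higher and 2 lower (33.3% called, against 41.3% of all), with a median log2 fold change of 0.08. The falls inside the bodies of Antxr1 and Dysf given above mostly lie outside this count. Actg2, Arhgap25 and Loxl3 had no assigned region. The higher ones were the Dctn1 promoter and a weak region of Add2, which encodes beta-adducin, a protein that caps actin filaments and ties them to spectrin, at 23.7 ± 3.21 (SD, n = 3) with the Actg1 guide and 11.2 ± 3.18 (SD, n = 2) with the GFP guide, which differ by 1.03 on the log2 scale (limma adjusted p = 0.0062). The lower ones were a region 4024 bp from the Dctn1 start (log2 fold change -0.31, limma adjusted p = 0.0127) and one 2268 bp from the Dysf start (log2 fold change -0.69, limma adjusted p = 0.000168). Without GFP guide replicate 3, 0 were higher and 1 was lower.

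Secreted factors, receptors and signalling adaptors had regions at 4 of 9 genes, with 3 of 5 regions higher and 0 lower (against 20.6% higher of all): the promoter of Aak1, the kinase described above, and 2 regions of Sema4f. The Sema4f region at 82936325 to 82936547 had 58, 69 and 47 with the Actg1 guide, against 24, 29 and 27 with the GFP guide (log2 fold change 1.07, limma adjusted p = 2.69e-05), a clear separation. The region at 82934673 to 82935220 rose by 0.21 (limma adjusted p = 0.0462), and that call was lost without any one Actg1 guide library or without GFP guide replicate 2. Tgfa, Bmp10 and Tacr1 had no assigned region. An unassigned region inside Tacr1, at 82528637 to 82528956, was called higher and is outside this count. It had 51, 58 and 62 with the Actg1 guide, against 27, 11 and 23 with the GFP guide (log2 fold change 1.40, limma adjusted p = 4.46e-07).

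Metabolic enzymes and genes of glycosylation had 2 of 12 regions higher and 0 lower (16.7% called, against 41.3% of all). These were the Rpn1 promoter and a region 4828 bp from the start of Gfpt1, the entry enzyme of the hexosamine pathway, at 103 ± 12.1 (SD, n = 3) with the Actg1 guide and 63.8 ± 6.01 (SD, n = 2) with the GFP guide, which differ by 0.68 on the log2 scale (limma adjusted p = 0.000153). Mitochondrial genes had 1 of 10 regions higher and 0 lower, also below that share, a region of Nfu1, the gene of an iron-sulfur cluster scaffold. Its rise of 0.21 (limma adjusted p = 0.039) was lost with the 6 libraries as separate samples (limma adjusted p = 0.057) and without any one library other than GFP guide replicate 2. Without GFP guide replicate 3 the log2 fold change was 0.095 (limma adjusted p = 0.516). Genes of protein sorting and turnover had 1 of 11 higher and 1 lower (18.2% called): a region 1061 bp from the start of Aup1, a lipid droplet protein, at 185 ± 8.33 (SD, n = 3) with the Actg1 guide and 131 ± 3.89 (SD, n = 2) with the GFP guide (log2 fold change 0.50, limma adjusted p = 0.000121), and a region 5372 bp from the start of Rab11fip5, an effector of recycling endosomes, at 135 ± 11.2 (SD, n = 3) with the Actg1 guide and 240 ± 0.354 (SD, n = 2) with the GFP guide (log2 fold change -0.83, limma adjusted p = 1.13e-08).

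The 12 genes listed as transcription factors or chromatin proteins had 0 of 9 assigned regions called by limma, and 0 with an unadjusted p under 0.05, at log2 fold changes of -0.12 to 0.40. They included the promoters of Mxd1, a partner of Max, Pcgf1, a Polycomb subunit, and Gcfc2, and 2 regions of Gata2, a zinc finger factor of blood and endothelium. Counted over the whole gene body, Tet3 held 1 higher and 2 lower of 8 tested regions, and Gata2 0 higher and 1 lower of 3. Emx1, Vax2, Lbx2, Tlx2 and Figla, which act in the developing brain, eye, nervous system, muscle or ovary, had no assigned region. Ino80b and Aplf, which also have roles at chromatin, were not on this list, and their promoters were called, as given above.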

How the data were processed

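Per the submitters' processing notes, the build was mm10, and they list DESeq, DESeq2 1.36.0, featureCounts, Picard 3.0.0, STAR 2.7.10a and Trimmomatic 0.39 without roles. Not given in the sources used here are the normalization formula, annotation version, peak caller, peak merging and Tn5 offset. A signal was deposited per region and library, read from the values as a normalized, rounded read count. Per the file headers the table also holds the fraction of a region inside its assigned gene. The distance to the TSS was at most 5988 bp, with at most 1 gene per region.

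Here limma 3.58.1 (R 4.3.3) with a mean-variance trend was fitted to log2(signal + 1) of all 61327 regions that reached a signal of 10 in 3 or more of the 6 libraries, as Actg1 guide minus GFP guide, without covariates. This scale understates changes of low regions. P-values were Benjamini-Hochberg adjusted over all tested regions and called under 0.05. Summed signals were compared by exact two-sided permutation (SciPy 1.17.1). The estimated reads, which rest on the steps left by rounding, served only to compare libraries.

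Genes named were all regions within 100 kb of Actg2, the 10 largest called rises and falls, the 5 strongest regions, and regions of the role lists. Other called promoters, the gene bodies led with and the noncoding regions were chosen after their values were seen. The stretch, members and lists were chosen with earlier results of these data known, as was the averaging of the near-identical GFP guide replicates 1 and 2. Gene bounds came from RefSeq (GRCm38.p6). Alternatives were the 6 libraries as separate samples, a pseudocount of 5, no filter or a filter at 20, cyclic loess and quantile scaling, a replicate block and each library left out.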

Additional observations from a re-analysis of the deposited data

How the results depend on the processing

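Leaving out each library in turn gave 43 to 73 regions higher and 33 to 62 lower in the stretch, the lowest of both without GFP guide replicate 3, where 1 GFP guide sample is left and is assumed to vary like the Actg1 guide. The other settings tried gave 68 to 83 higher and 52 to 64 lower. The summed signal within 1 Mb of Actg2 had no fixed direction, at log2 ratios of -0.0113 to 0.0092 over the libraries left out. The share of all signal, the sums within 50 to 500 kb and those in bins of 1 Mb kept their direction with 6 libraries and with each library left out, and the sums also as means over same-numbered pairs. The sums of 7 gene bodies and 11 bins of 500 kb were recomputed likewise after the data were seen, and their direction follows from groups that do not overlap.

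Same-numbered libraries deviated together only weakly (r of 0.0138 to 0.0252 over regions), while pairs of unlike number had r of -0.0165 to -0.000345. Whether the numbers stand for a shared batch was not tested. With 6 libraries and a replicate block, 83 regions were higher and 64 lower, and the log2 ratio within 50 kb, as a mean over same-numbered pairs, was 0.0927 (exact permutation p = 0.5).

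Of the named regions, those that changed sign were not called in the fit reported. The region at 82652471 to 82653244 had 0.00851 with 6 libraries, block or no block, 0.0332 with cyclic loess and 0.0305 with quantile scaling. Under those 2 scalings Aup1 had 0.0287 and 0.0325 and Fam136a 0.0113 and 0.0157, and an Alms1 region had -0.0302 with 6 libraries, block or no block. Over the libraries left out, log2 fold changes ran from -0.119 to 0.0131 for Gcfc2, -0.0737 to 0.0237 for Eva1a, -0.0183 to 0.0391 for 82652471, -0.0103 to 0.0678 for Dok1, -0.0293 to 0.0163 for Aup1, -0.14 to 0.0122 for Bola3, -0.514 to 0.508 for 83424143, -0.00511 to 0.0698 for Dguok, -0.0149 to 0.104 for Paip2b, -0.00756 to 0.15 for Alms1 at 85587260 and -0.249 to 0.246 at 85590231, and -0.0509 to 0.00212 for Fam136a. The cause was not tested. With 1 GFP guide sample, or weak signal, depth limits what a call can show.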

Other observations

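Of the 7 members too weak to test, 6 carried no gene symbol and 1 was assigned to Gkn3, the gene of a stomach protein of the gastrokine family, with a signal of 13, 9 and 18 with the Actg1 guide, against 6, 5 and 9 with the GFP guide. These values touch at 9. The region at 84329213 to 84329338, just past the run of 9 lower regions beside Dysf, had 2, 1 and 1 with the Actg1 guide, against 11, 11 and 6 with the GFP guide. Its groups were apart, but it was left out by the filter and has no test. Of the regions assigned to other noncoding classes, 0 of 4 assigned to microRNA genes were called by limma (1 had an unadjusted p under 0.05), and 1 of 6 tested at processed pseudogenes was higher and 1 lower (33.3% called, against 41.3% of all tested regions).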
